A study of Mus musculus with 2 samples.

Results

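The genes described here encode the proteins of the mitochondrial ribosome, taken as every gene whose symbol begins with Mrpl or Mrps followed by a digit, without those named as pseudogenes. There were 78 such genes, 49 with Mrpl and 29 with Mrps names, among 31053 genes counted. They were measured by droplet sequencing of RNA from the 3′ end in single LSK cells, a fraction of mouse bone marrow sorted for lack of lineage antigens and presence of Sca1 and c-Kit, which holds blood stem cells and multipotent progenitors. The cells came from C57BL/6J mice aged 6 to 8 weeks. A control library from mice that were not irradiated was set beside a library from mice taken at day 15 after total body irradiation with 5.0 Gy. The libraries were sorted on the same surface markers, and how many animals were pooled in each was not stated.

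With 1 library per group there was no replicate error, no test was possible, and each interval below is an exact 95% interval that covers counting error only. The kept cells numbered 7189 in the control and 5112 in the irradiated library, with 138113621 and 162741683 unique molecular identifiers (UMIs). The median cell held 16084 UMIs in the control and 29615 in the irradiated library, and 16 cell barcodes occurred in both. Kit was detected in 82.8% of control and 80.5% of irradiated cells, and Ly6a, which encodes Sca1, in 81.6% and 89.1%. Their levels were 132 and 73.5 counts per 1000000 UMIs (CPM) for Kit and 156 and 218 CPM for Ly6a. Of genes commonly targeted by lineage antibodies, Cd3e and Ly6g were each detected in at most 0.181% of the cells of either library, and Itgam, a myeloid integrin, in 15.9% of control and 15.3% of irradiated cells.

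The mitochondrial ribosome translates the few messages of the mitochondrial genome, which encode subunits of the respiratory chain and the ATP synthase. Its RNAs come from that genome, while all its proteins are encoded in the nucleus, made in the cytosol and imported. A small subunit decodes the message and a large subunit forms the peptide bond, and both carry proteins that bacteria lack. Blood stem cells are known for low protein synthesis and low reliance on respiration, and both increase as progenitors leave the stem cell state.

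The promoters of 4 genes are shown because these genes mark the ends of the range found between the libraries. Mrpl20 and Mrps22 had the highest irradiated over control ratios, and Mrpl23 and Mrpl48 had the lowest. Each sequence is from RefSeq on GRCm38.p6, runs 5′ to 3′ on the gene's strand, and covers 250 bases before and 50 after the listed start. The windows are chr4:155802628-155802927 on the plus strand for Mrpl20, chr9:98601630-98601929 on the minus strand for Mrps22, chr7:142532782-142533081 on the plus strand for Mrpl23 and chr7:100608252-100608551 on the minus strand for Mrpl48. Capitals mark matches to the letters of 5 motifs on either strand, which were GCGCANGCG for NRF1, CCGGAAG for ETS factors such as GABPA, AAGATGGCG for YY1, CACGTG for MYC and GGGCGG for SP factors.
Mrpl20: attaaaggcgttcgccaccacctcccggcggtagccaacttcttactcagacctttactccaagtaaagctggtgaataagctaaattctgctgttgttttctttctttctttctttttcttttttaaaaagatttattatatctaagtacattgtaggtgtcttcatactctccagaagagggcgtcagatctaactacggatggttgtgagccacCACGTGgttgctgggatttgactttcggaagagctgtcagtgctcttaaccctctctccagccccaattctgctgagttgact
Mrps22: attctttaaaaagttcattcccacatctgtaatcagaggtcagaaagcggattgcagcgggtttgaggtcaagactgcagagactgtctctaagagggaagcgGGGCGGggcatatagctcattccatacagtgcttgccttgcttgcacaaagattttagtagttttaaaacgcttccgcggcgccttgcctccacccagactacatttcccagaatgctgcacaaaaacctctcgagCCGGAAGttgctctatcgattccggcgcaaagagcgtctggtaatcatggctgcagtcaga
Mrpl23: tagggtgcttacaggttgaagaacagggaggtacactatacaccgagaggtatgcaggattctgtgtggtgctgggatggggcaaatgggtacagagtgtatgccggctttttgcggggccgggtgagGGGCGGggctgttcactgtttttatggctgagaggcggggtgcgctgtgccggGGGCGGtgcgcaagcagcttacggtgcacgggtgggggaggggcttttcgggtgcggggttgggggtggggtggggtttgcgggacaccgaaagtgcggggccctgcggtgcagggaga
Mrpl48: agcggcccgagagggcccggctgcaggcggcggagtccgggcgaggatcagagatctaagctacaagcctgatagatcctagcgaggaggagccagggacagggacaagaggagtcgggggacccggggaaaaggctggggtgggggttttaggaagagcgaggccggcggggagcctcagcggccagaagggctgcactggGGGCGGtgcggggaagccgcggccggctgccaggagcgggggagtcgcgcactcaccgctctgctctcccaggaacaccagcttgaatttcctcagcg

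The Mrpl20 window held CACGTG at -33, counted from the listed start. The Mrps22 window held CCGGAAG at -11 and GGGCGG at -147. The Mrpl23 window held GGGCGG at -122 and -69, and the Mrpl48 window held GGGCGG at -48. For Mrpl20 the nearest protein-coding transcript of GENCODE M21 began 643 bases downstream of the listed start, so its window may not be the promoter in use. Mrpl48 had 4 listed starts, of which the most upstream is shown. Within 100 bases of that start 1 protein-coding transcript began, against 3 at the most downstream listed start. The window of that downstream start, not shown, held a match to the ETS letters at -34.

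Over all members the RefSeq table held 75 promoter windows of 69 genes. ETS letters stood in 34.7% of them, in 8.86% of all 32851 listed promoters and in 21.5% of those of genes whose mean over the libraries reached 20 CPM. NRF1 letters stood in 21.3% of member windows, in 6.25% of all and in 16.3% of expressed promoters. YY1 letters stood in 10.7%, 1.40% and 3.88%. MYC letters stood in 9.33%, 7.15% and 11.1%, and SP letters in 52.0%, 35.7% and 64.5%. A match describes letters in a window and is no evidence of binding. Members above 20 CPM with ETS letters had a median log2 ratio of irradiated over control of 0.42 (24 genes), and those without them 0.40 (41 genes). With NRF1 letters the median was 0.41 (16 genes), and without them 0.43 (49 genes). The 7 members with YY1 letters lay between 0.39 and 0.53, with a median of 0.48 against 0.39 without them (58 genes). With MYC letters the median was 0.49 (5 genes), and without them 0.40 (60 genes). With SP letters it was 0.41 (34 genes), and without them 0.41 (31 genes). These differences were not tested.

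The first comparison asks how the level of these genes differed between the libraries over all cells. Mitochondrial ribosomal protein messages took a larger share of the irradiated library. Summed over the 78 genes they stood at 6477 CPM (6463 to 6490) in the control and 8489 CPM (8475 to 8503) in the irradiated library. The log2 ratio of the sums was 0.39 (0.386 to 0.394), or 1.31-fold. A member was counted as higher where its irradiated CPM exceeded the control CPM by 25% or more, and as lower where it was below it by 20% or more, which is the same ratio taken the other way. Of the 74 members with a mean of 20 CPM or more, 52 were higher by this rule and 0 lower. Among all 5247 genes at that minimum, 21.2% were higher and 20.4% lower. The members' ratios were spread narrowly, with a median log2 ratio of 0.41 and an SD over genes of 0.15, against a median of 0.02 and an SD of 0.49 over all genes. The number of members that reached 2-fold was 0 in either direction.

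**Figure D1:**
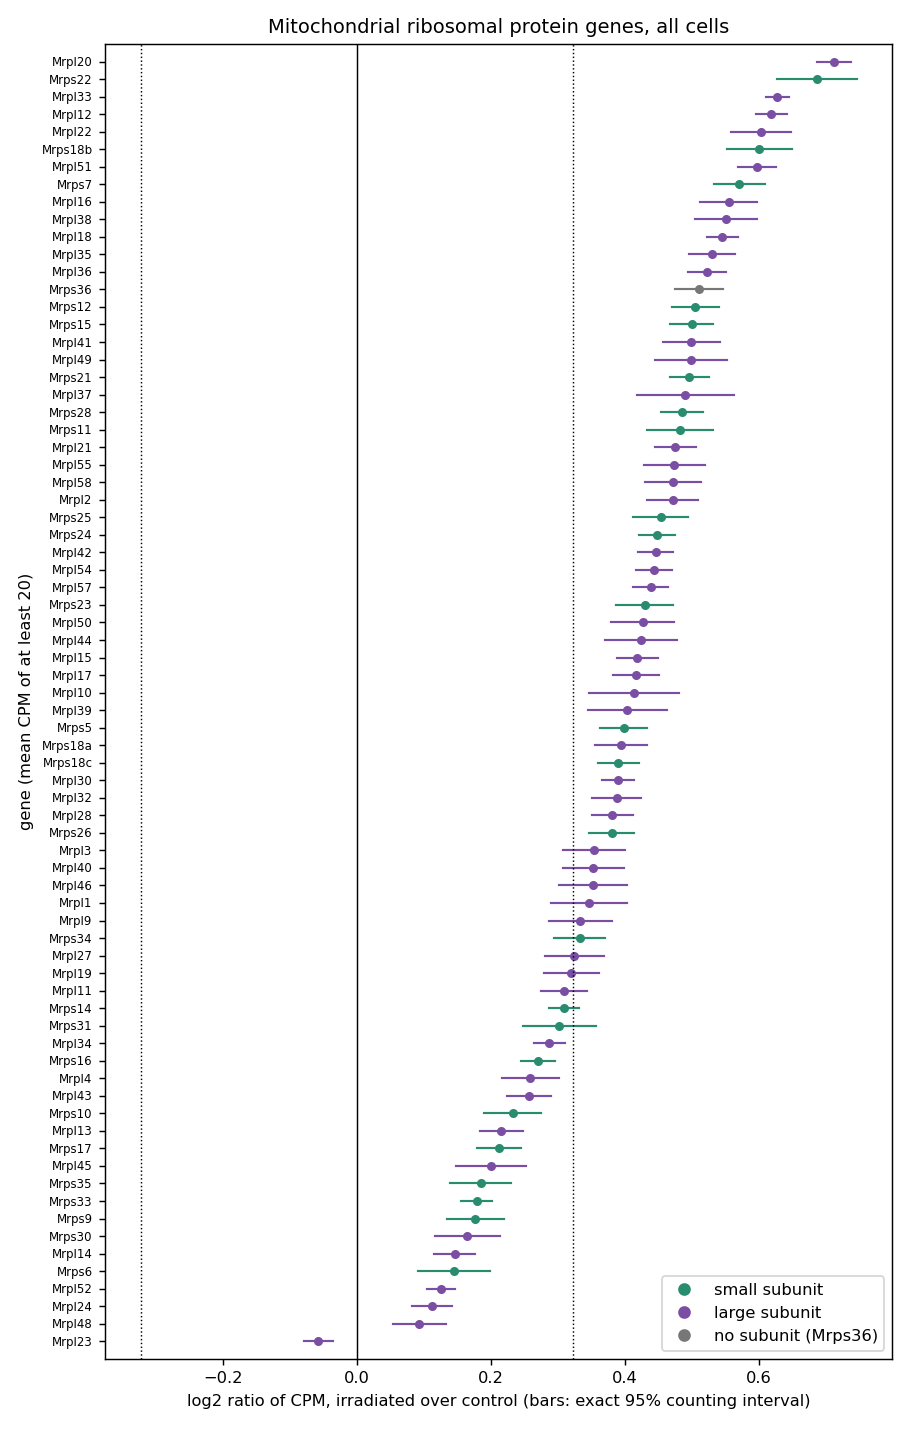
Log2 ratio of CPM, irradiated over control, for the 74 mitochondrial ribosomal protein genes with a mean of 20 CPM or more (points, with exact 95% counting intervals), coloured by ribosomal subunit; dotted lines mark the ratio for counting a member as higher or lower. All but Mrpl23 lie above 0. Both subunits are spread through most of the range, but the lowest points are large subunit genes. The lowest small subunit gene is Mrps6, at 0.15.

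The libraries also differed in their make-up and in the depth of their cells, and the parts of these in the difference were not separated. The 8 markers of neutrophil-primed cells summed to 1551 CPM in the control and 6522 CPM in the irradiated library, and the 8 markers of haematopoietic stem cells (HSCs) to 228 and 81.2 CPM. More messages per cell and more cells of a type cannot be told apart in these sums. In cells of 20000 to 30000 UMIs alone, 1583 control and 1252 irradiated cells, the log2 ratio of the sums was 0.15 (0.147 to 0.163). In those cells 4 of 73 members were higher by the same rule and 0 lower, where 6.91% and 13.6% of all genes were. The median member log2 ratio there was 0.14, against -0.03 over all genes.

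The highest ratios belonged to proteins of both subunits. Mrpl20, a large subunit protein also found in bacteria (chromosome 4, 155802878 to 155809975, GRCm38), had 139 CPM in the control and 227 CPM in the irradiated library (log2 ratio 0.71, 0.69 to 0.74). Mrps22, a small subunit protein that bacteria lack (chromosome 9, 98588730 to 98601660), had 25.1 and 40.4 CPM (log2 ratio 0.69, 0.63 to 0.75). Both intervals lay well above the ratio that counts as higher. Mrpl33, a small protein of the large subunit, stood at 312 and 481 CPM (0.63). Mrpl22, which lines the tunnel through which the new chain leaves, stood at 44.7 and 67.8 CPM (0.60). In cells of 20000 to 30000 UMIs the log2 ratio was 0.26 for Mrpl20, 0.29 for Mrps22, 0.30 for Mrpl33 and 0.36 for Mrpl22.

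The lowest ratio was that of Mrpl23, a large subunit protein at the exit of that tunnel (chromosome 7, 142532686 to 142540747). It stood at 229 CPM in the control and 220.0 CPM in the irradiated library, a log2 ratio of -0.06 (-0.08 to -0.04), and it was the only one of the 74 below 0. In cells of 20000 to 30000 UMIs the log2 ratio of Mrpl23 was -0.006 (-0.05 to 0.04), an interval that held 0. It was not alone there, as 7 of 73 members lay below 0, with Mrps17 the lowest (-0.10, -0.17 to -0.03). Mrpl24, whose protein lies near the same exit, stood at 117 and 126 CPM (0.11, 0.08 to 0.14). Mrpl48 (chromosome 7, 100545751 to 100608301) stood at 67.0 and 71.4 CPM (0.09). Mrpl52, a large subunit protein that bacteria lack, stood at 232 and 253 CPM (0.13), but its log2 ratio was 0.43 (0.39 to 0.47) in cells of 20000 to 30000 UMIs, the highest of the members at the minimum there. Mrps6, of the small subunit, and Mrpl14, at the face between the subunits, both had log2 ratios of 0.15. These 6 genes stayed inside that ratio, and 5 of them were still higher in the irradiated library.

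The subunits had close ratios. The 26 small subunit genes summed to 2006 CPM in the control and 2588 CPM in the irradiated library, a log2 ratio of 0.37 (0.361 to 0.375), and the 51 large subunit genes to 4400 and 5799 CPM, a log2 ratio of 0.40 (0.394 to 0.403), and these intervals did not meet. Among members at the minimum, 15 of 24 small and 36 of 49 large subunit genes were higher by the rule, against 21.2% of all genes. Over all cells genes numbered as in bacteria had a log2 ratio of 0.40 (0.395 to 0.405). Those with numbers given to proteins of the mitochondrial ribosome alone had 0.37 (0.366 to 0.379). This order was reversed in neutrophil-primed-like cells (0.09 and 0.10) and in megakaryocyte-primed-like cells (0.14 and 0.18).

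Members with particular roles were spread over the range. Mrpl10 and Mrpl12 encode the stalk that recruits translation factors. Mrpl12 had 174 and 266 CPM (log2 ratio 0.62, and 0.12 in cells of 20000 to 30000 UMIs), while Mrpl10 stood at 21.2 and 28.3 CPM (0.41, 0.35 to 0.48). Mrps12, of the decoding centre, stood at 75.0 and 106 CPM (0.50). Mrpl58, a peptidyl-tRNA hydrolase built into the large subunit, stood at 54.6 and 75.7 CPM (0.47). Mrpl45, which ties the mammalian ribosome to the inner membrane, stood at 37.3 and 42.8 CPM (0.20, 0.15 to 0.25).

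The paralogues of bacterial protein S18 differed among themselves. Mrps18b had 38.8 and 58.9 CPM (log2 ratio 0.60, 0.55 to 0.65). Mrps18c, the small subunit copy in the place of the bacterial protein, stood at 103 and 135 CPM (0.39, 0.36 to 0.42), and Mrps18a, which sits in the large subunit, at 63.8 and 83.8 CPM (0.39, 0.36 to 0.43). The interval of Mrps18b did not meet those of the other two over all cells. In cells of 20000 to 30000 UMIs it met that of Mrps18c and that of Mrps18a, at 0.22 (0.12 to 0.33), 0.11 (0.04 to 0.17) and 0.06 (-0.02 to 0.15). Mrps36, which carries a ribosomal name but is known as a subunit of the 2-oxoglutarate dehydrogenase complex, stood at 71.2 and 101 CPM (0.51), inside the range of the ribosomal proteins. Mrps27, Mrpl47, Mrps2 and Mrpl53 lay below the minimum, and each was higher in the irradiated library. Mrpl53 had only 70 UMIs in the control and 126 in the irradiated library.

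The members lay on 17 chromosomes, with 11 genes on chromosome 11. The start of another protein-coding gene lay within 1000 bases on the opposite strand, head to head, for 18 of the 78 members (23.1%), against 6.79% of all protein-coding genes and 11.5% of those at 20 CPM. Of these partners 6 reached the minimum, with 3 higher by the rule and 1 lower, where 21.2% and 20.4% of all genes were. Counts among so few genes say little beside those shares. The median log2 ratio of the 6 partners was 0.24, against 0.50 for the members of those 6 pairs. Mrps18b shares its start region with Ppp1r10, a phosphatase regulator at 99.8 CPM in the control and 50.6 CPM in the irradiated library, a log2 ratio of -0.98 against 0.60 for Mrps18b. Mrpl49 lies head to head with Fau, of the cytosolic ribosome, at -0.07 against 0.50. Mrpl51 stood at 0.60 beside Ncapd2 at 0.11. The other pairs lay closer together, with Mrpl30 and Mitd1 at 0.39 and 0.66, Mrpl32 and Psma2 at 0.39 and 0.42, and Mrps27 and Ptcd2 at 0.50 and 0.36. Exons of 4 members overlapped those of another counted gene on the same strand (Mrpl53, Mrps24, Mrps34 and Mrps6), and 26 members had such overlap on the opposite strand. The effect of these overlaps on the counts was not tested.

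The next comparison asks how the summed level differed between kinds of cell. Clusters were made without the members themselves, and a cluster was named by marker genes alone. The order of the levels was similar in the libraries, with neutrophil-primed-like cells at the top and stem-like cells near the bottom. Neutrophil-primed-like cells stood at 9033 CPM (8947 to 9119) in the control and 9650 CPM (9622 to 9678) in the irradiated library. HSC-like cells stood at 5186 CPM (5136 to 5236) and 5585 CPM (5460 to 5712). In the control library B lineage-like cells (7833 CPM) came next after the neutrophil-primed-like ones, followed by erythroid-primed-like cells (7408 CPM), a cluster led by the DNA replication genes Ung and E2f1 (7093 CPM), a cluster led by the mitosis gene Nusap1 and the histone gene Hist1h1b (6907 CPM), megakaryocyte-primed-like cells (6837 CPM) and T/NK lineage-like cells (6765 CPM). The last 3 of these had neighbouring values, and their intervals overlapped one another.

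Below them in the control library stood lymphoid-primed-like cells (5986 CPM), a small cluster led by the class II MHC genes H2-Eb1 and Cd74 (5920 CPM), a cluster led by Hlf and Vldlr (5613 CPM), the HSC-like cells and a cluster led by Ccr9 (5043 CPM). Hlf is a stem cell factor, but that cluster held only 2 of the HSC markers among its leading genes and took no name. In the irradiated library the order was neutrophil-primed-like, erythroid-primed-like (9273 CPM), the Nusap1 cluster (8315 CPM), the Ung cluster (8087 CPM), B lineage-like (7868 CPM), megakaryocyte-primed-like (7596 CPM), lymphoid-primed-like (6590 CPM), the Hlf cluster (6104 CPM), T/NK lineage-like (6103 CPM), the Ccr9 cluster (5784 CPM), HSC-like, and the H2-Eb1 cluster (4831 CPM).

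**Figure D2:**
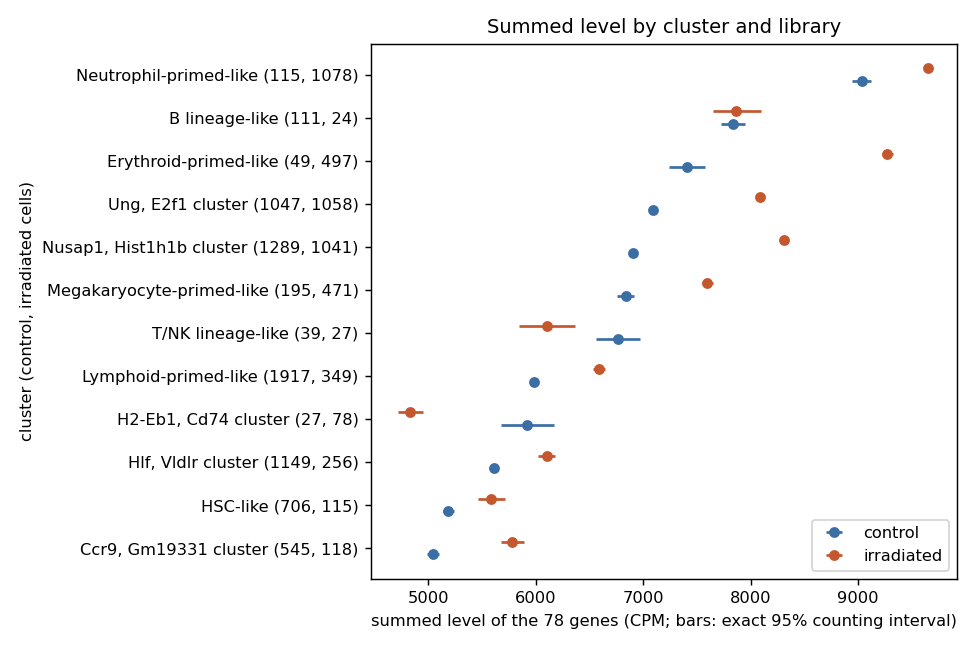
Summed level of the 78 genes in CPM (x axis) in each cluster (y axis, with the number of control and irradiated cells), for the control (blue) and irradiated (orange) library; bars are exact 95% counting intervals. Of the 12 clusters, only the T/NK lineage-like and the H2-Eb1 and Cd74 clusters have the lower value in the irradiated library.

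Most members shared the difference between HSC-like and neutrophil-primed-like cells, with a few exceptions. The summed level already differed between these sets, so a majority of higher members follows in part from the choice of sets. In the control library 65 of 74 members at the minimum were higher by 25% or more in neutrophil-primed-like than in HSC-like cells, and 1 was lower by 20% or more. In the irradiated library 66 of 74 were higher and 2 lower. Among all genes 35.7% were higher and 37.9% lower in the control library, and 34.7% and 38.6% in the irradiated library. The median member log2 ratio was 0.82 in the control and 0.86 in the irradiated library.

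The member with the highest ratio was Mrpl12, the stalk protein. It stood at 89.0 CPM in HSC-like and 315 CPM in neutrophil-primed-like cells of the control library, a log2 ratio of 1.82 (1.69 to 1.96), and at 111 and 324 CPM in the irradiated library (1.55, 1.31 to 1.79). In the control library Mrpl33 followed, with log2 ratios of 1.72 in the control and 1.43 in the irradiated library, then Mrpl18, with 1.57 and 1.53. In the irradiated library Mrpl18, Mrpl20 (1.49) and Mrpl51 (1.45) lay above Mrpl33. Mrpl52 went the other way. It stood at 329 CPM in HSC-like and 146 CPM in neutrophil-primed-like cells of the control library, a log2 ratio of -1.17 (-1.30 to -1.05), and at 355 and 165 CPM in the irradiated library (-1.11, -1.24 to -0.97). Mrps6 had log2 ratios of -0.26 (-0.57 to 0.04) and -0.66 (-1.01 to -0.29). Mrpl23, Mrpl24 and Mrpl45 lay between -0.06 and 0.18 in both libraries, and each of their intervals held 0. Of the 10 members with the highest ratio in the control library 7 were among the 10 highest in the irradiated library, and 8 of the 10 lowest were shared.

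Across the sets in the control library, Mrpl52 also stood at 303 CPM in the Hlf cluster, 272 CPM in the Ccr9 cluster, 259 CPM in megakaryocyte-primed-like cells, 239 CPM in lymphoid-primed-like cells, 222 CPM in the Ung cluster and 189 CPM in the Nusap1 cluster. Its level was thus highest in the HSC-like and Hlf sets, where the summed members were near their lowest. Mrpl23 ranged from 192 to 246 CPM over the 8 sets. These genes were chosen after their values were seen. The neutrophil-primed-like cells of the control library carried messages of mature neutrophils. The 8 genes of that list summed to 9339 CPM there and to 195 CPM in the irradiated library, and their part in these ratios was not tested.

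The third comparison asks how the members differed between the libraries within like cells. It used the 8 sets with at least 100 cells in each library, and every set had the higher sum in the irradiated library by a smaller ratio than all cells did. In HSC-like cells (706 control and 115 irradiated) the log2 ratio of the sums was 0.11 (0.07 to 0.14). Of 71 members at the minimum, 8 were higher by the rule and 3 lower, where 14.5% and 12% of all genes were, so the members' shares there lay under the background. At a clustering resolution of 0.5, where the class was larger (2170 and 744 cells), the log2 ratio was 0.27, and at a limit of 5% mitochondrial UMIs it was 0.06. In lymphoid-primed-like cells (1917 and 349) the log2 ratio was 0.14 (0.12 to 0.15), with 4 of 73 members higher and 0 lower, against 8.29% and 10.0% of all genes. In megakaryocyte-primed-like cells (195 and 471) it was 0.15 (0.13 to 0.17), with 6 of 73 higher and 0 lower, against 6.98% and 11.9%. In neutrophil-primed-like cells (115 and 1078) it was 0.10 (0.08 to 0.11), with 3 of 76 higher and 0 lower, against 5.60% and 6.78%, and with each cell weighted equally the log2 ratio was 0.16. The control cells of this class carried 9339 CPM of the mature neutrophil genes and the irradiated cells 195 CPM, and the part of these messages in the ratio was not tested.

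Of the 8 sets, the cluster led by Nusap1 had the highest ratio. In it (1289 and 1041 cells), where 77.3% of control and 74.2% of irradiated cells with a phase call were in G2/M, the sums were 6907 CPM in the control and 8315 CPM in the irradiated library (log2 ratio 0.27, 0.26 to 0.27). There 25 of 74 members were higher and 0 lower, against 11.5% and 14.8% of all genes. In the Ung cluster (1047 and 1058) the log2 ratio was 0.19 (0.18 to 0.20), with 13 of 74 higher and 0 lower, against 9.43% and 10.5%. In the Hlf cluster (1149 and 256) it was 0.12 (0.10 to 0.14), with 10 of 71 higher and 0 lower, against 9.04% and 12.1%. In the Ccr9 cluster (545 and 118) it was 0.20 (0.17 to 0.23), with 21 of 71 higher and 1 lower, against 17.0% and 19.4%. The 52 G2/M genes also summed to 1787 CPM in the control and 2969 CPM in the irradiated cells of the Ccr9 cluster, and their part in its ratio was not tested. The median cell held 28336 UMIs (control) and 38674 (irradiated) in the Nusap1 cluster, and 20145 and 27454.5 in the Ung cluster. It held 15277 and 20485 in lymphoid-primed-like cells, 12145 and 14641 in the Hlf cluster and 11573 and 14405 in the Ccr9 cluster. It held 20278 and 21019 in megakaryocyte-primed-like, 10481 and 11381 in HSC-like, and 43046 and 44764.5 in neutrophil-primed-like cells. The part of depth in these ratios was not tested.

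Single members rested on the fewest UMIs in HSC-like cells of the irradiated library. In HSC-like cells Mrps6 stood at 34.7 CPM in the control and 50.8 CPM in the irradiated library (275 and 69 UMIs), a log2 ratio of 0.55 (0.14 to 0.93), and Mrpl22 at 35.3 and 47.8 CPM (0.44, 0.03 to 0.83). At the other end Mrps10 had a log2 ratio of -0.47 (-0.99 to 0.02) and Mrpl40 of -0.45 (-0.999 to 0.06), both with intervals that held 0. In lymphoid-primed-like cells the highest were Mrps22 (0.36, 0.13 to 0.59) and Mrpl38 (0.33), and the lowest Mrpl52 (-0.07) and Mrps17 (-0.06). In megakaryocyte-primed-like cells the highest were Mrps22 (0.67, 0.35 to 0.99) and Mrpl41 (0.58, 0.35 to 0.81), and the lowest Mrps31 (-0.17) and Mrps30 (-0.13). In neutrophil-primed-like cells the highest were Mrpl47 (0.40) and Mrpl46 (0.37), and the lowest Mrpl23 (-0.20, -0.29 to -0.12) and Mrpl16 (-0.17, -0.31 to -0.02).

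Across the 8 sets 71 members reached the minimum in every set. Of these, 31 were higher in the irradiated library in all 8, by any amount, among them Mrpl20, Mrpl33, Mrps7, Mrps12 and Mrps36. Of all 3918 genes at the minimum in every set, 17.4% were higher in all 8 and 12.4% lower. Mrpl23 was the 1 member lower in all 8, with log2 ratios between -0.28 and -0.02. Its interval lay below 0 only in the Hlf and Ung clusters and in neutrophil-primed-like cells, and held 0 in the other sets. In the Hlf cluster Mrpl23 stood at 227 CPM in the control and 187 CPM in the irradiated library (-0.28, -0.40 to -0.17). In the HSC-like set it stood at 238 and 223 CPM (-0.09, -0.27 to 0.08). Mrps17, of the small subunit, was lower in 6 of the 8 sets, although over all cells it stood at 93.6 and 108 CPM. All 8 sets come from the same pair of libraries and do not count as replicates.

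**Figure D3:**
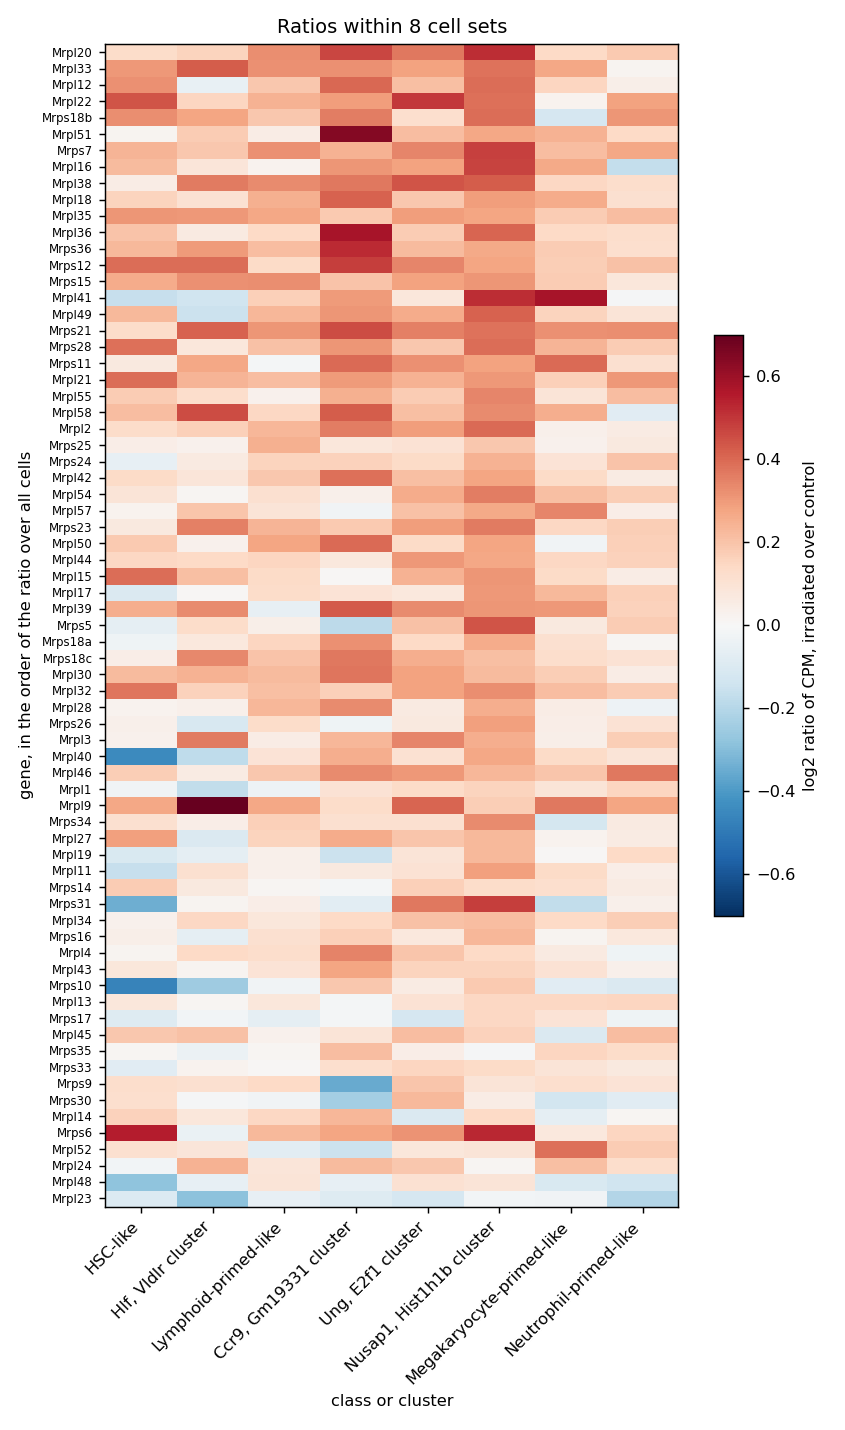
Log2 ratio of CPM, irradiated over control, for the 71 members at the minimum in all 8 cell sets (columns), in the order of their ratio over all cells (rows); red is higher and blue lower in the irradiated library. The Mrpl23 row is blue in every column, and in the Nusap1 column only Mrpl23 and Mrps35 lie below 0.

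When the irradiated cells of each cluster were weighted by that cluster's share of control UMIs, the members summed to 7354 CPM, a log2 ratio of 0.18 over the control library in place of 0.39. With 30 neighbours drawn from all cells in the clustering it was 0.10. Several clusters of that alternative came mostly from 1 library, such as 1 with 1150 control and 22 irradiated cells and another with 44 and 891. Few irradiated cells there stood for large shares of the control. At the mix of the main clustering, where the log2 ratio was 0.18, 6 of 74 members were higher by the rule and 0 lower. Of all genes 6.74% were higher and 8.99% lower at that mix. These 6 were Mrps22, Mrpl20, Mrpl38, Mrps7, Mrps21 and Mrpl22, named after their values were seen. The members still lay together, at a median log2 ratio of 0.21 with an SD over genes of 0.09, against a median of 0.00 and an SD of 0.29 over all genes. Mrpl23 stood at 229 CPM in the control and 216 CPM at that mix (-0.08), and it was again the only member at the minimum below 0.

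The summed level went up with the depth of the cell in both libraries. In the control library it was 5321 CPM in cells of 1000 to 10000 UMIs, 5876 CPM at 10000 to 20000, 6663 CPM at 20000 to 30000, 7030 CPM at 30000 to 40000 and 7605 CPM above 40000 UMIs. In the irradiated library it was 5896, 6436, 7418, 8347 and 9515 CPM in the same classes of depth. The log2 ratios were 0.15, 0.13, 0.15, 0.25 and 0.32. When each cell was instead thinned to 5000 UMIs, a control cell held a median of 30 member UMIs (5th to 95th percentile 19 to 44) and an irradiated cell 39 (23 to 58), and 0 cells in either library lacked them. By phase call the log2 ratio was 0.22 in G1, 0.33 in S and 0.34 in G2/M. Within HSC-like cells called G1 (648 and 102 cells) it was 0.12 (0.09 to 0.16), and within megakaryocyte-primed-like cells called G1 (38 and 92) it was 0.00 (-0.05 to 0.06).

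**Figure D4:**
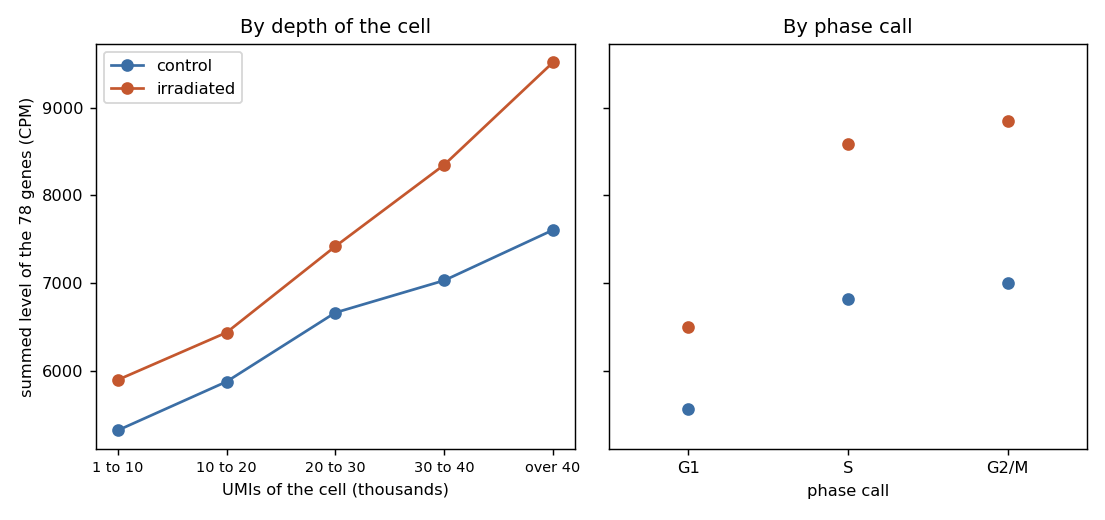
Summed level of the 78 genes in CPM for cells grouped by their UMIs (left) and by phase call (right) in the control (blue) and irradiated (orange) library. The level is higher in deeper cells of both libraries, and the irradiated library is above the control in every group, with the widest gap above 40000 UMIs.

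The last comparison sets the members beside the genes they work with. Over all cells 21.2% of all genes at the minimum were higher by the rule and 20.4% lower, and the counts below stand beside these shares. Nuclear genes of respiratory chain and ATP synthase subunits were higher to a like degree over all cells, with 53 of 77 at the minimum higher by the rule, 2 lower and a median log2 ratio of 0.40. Among them Atp5k stood at 232 and 432 CPM (0.90) and Uqcrq at 309 and 543 CPM (0.82), while Cox7a2l, a supercomplex factor, stood at 421 and 294 CPM (-0.52) and Cox6a2 at 34.0 and 25.8 CPM (-0.40). The 13 subunits encoded by the mitochondrial genome, which the mitochondrial ribosome translates, stood lower. They summed to 42342 CPM in the control and 31318 CPM in the irradiated library, a log2 ratio of -0.44, with 0 higher by the rule and 8 lower. The lowest were mt-Co3 (-0.52) and mt-Atp6 (-0.51), and mt-Atp8 (0.19) and mt-Nd4l (0.26) were the only ones above 0.

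The 80 cytosolic ribosomal protein genes at the minimum had a median log2 ratio of -0.04, with 4 higher and 1 lower, against 21.2% and 20.4% of all genes. Those 4 included Rps27l (519 and 812 CPM, 0.65), a p53 target, and Rpl41 (0.35), and the lowest were Rps24 (-0.40) and Rps7 (-0.32). In each of the 8 sets the summed mitochondrially encoded subunits were lower in the irradiated library, by log2 ratios from -0.33 in HSC-like to -0.10 in neutrophil-primed-like cells. The summed nuclear respiratory chain genes were higher in each set, by 0.14 in neutrophil-primed-like cells to 0.33 in the Ccr9 cluster. The summed cytosolic ribosomal proteins lay between -0.03 and 0.03.

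**Figure D5:**
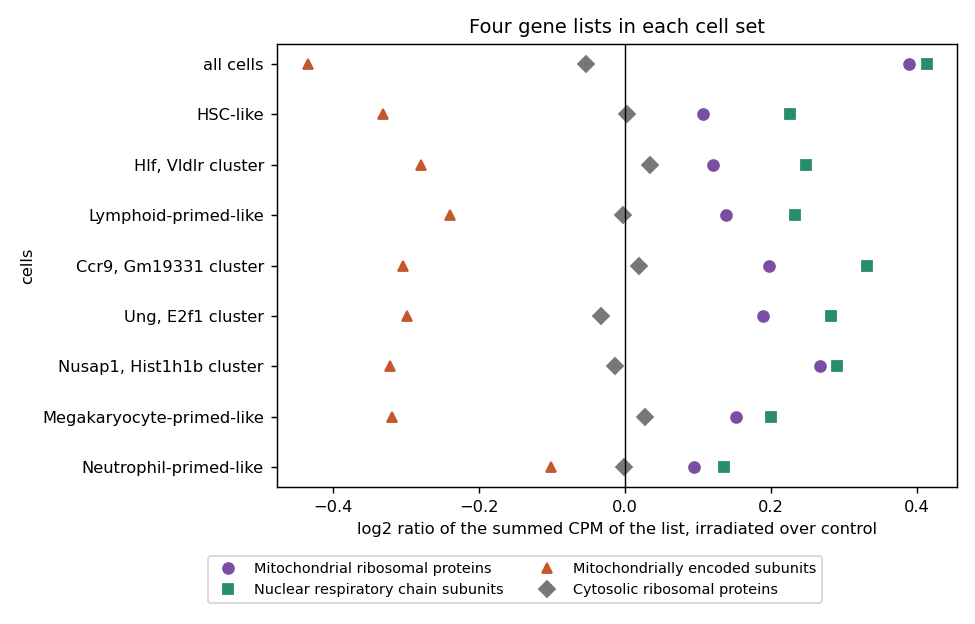
Log2 ratio of summed CPM, irradiated over control, of 4 gene lists over all cells and in each of 8 cell sets. Mitochondrial ribosomal protein and nuclear respiratory chain genes lie above 0 in every row, mitochondrially encoded subunits below 0, and cytosolic ribosomal proteins near 0.

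Proteins of the mitochondrial ribosome that carry other names went with the members. Of 5 such genes 3 were higher by the rule and 0 lower, with Gadd45gip1 at 106 and 169 CPM (0.67), Chchd1 at 0.48, and Dap3, a GTP-binding small subunit protein, and Ptcd3 both at 0.28. Among translation factors 3 of 7 at the minimum were higher and 0 lower. The elongation factor genes Tsfm (0.65) and Tufm (0.53) were the highest, and Mtif2, of initiation (-0.22), and Oxa1l, the membrane insertase (-0.16), the lowest. Of genes for copying and transcribing mitochondrial DNA 4 of 7 were higher, led by Slirp (0.73), a stabiliser of mitochondrial messages, and Pnpt1 (0.70), while Tfam, the packaging factor, stood at -0.12 and Tfb2m at -0.03. Among all genes 21.2% were higher and 20.4% lower, and counts in lists of 5 to 7 genes say little beside those shares.

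The remaining lists had genes on both sides of 0. Of 26 assembly and RNA modification genes 5 reached it, with Noa1 at 0.63, Malsu1 at 0.19, Ngrn at -0.07 and Dhx30 at -0.35. Of 17 mitochondrial aminoacyl-tRNA synthetases 7 reached it, with Yars2 at 0.63, Tars2 at 0.21, Cars2 at 0.00 and Lars2 at -0.52. Of 14 transcription regulators of mitochondrial genes 6 reached it, with 0 higher and 1 lower, where 21.2% and 20.4% of all genes were. Max stood at 0.14, Myc at 0.12, Yy1 at -0.01 and Gabpb1, a partner of GABPA, at -0.43 (37.0 and 27.4 CPM). Nrf1 stood at 26 CPM in either library, a log2 ratio of 0.00.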

How the data were processed

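Single-cell 3′ gene expression was measured in 1 control and 1 irradiated library. The deposited values are raw UMI counts per gene and barcode, made by the authors with Cell Ranger 2.1.1 on mm10, per the submitters' processing notes, while the file headers name software version 3.1.0. Barcodes with at least 1000 UMIs, 500 genes and at most 10% mitochondrial UMIs were kept. Scrublet at an expected rate of 0.06 marked 1 control and 16 irradiated cells (0.0139% and 0.312%), so doublet calling did not work and few doublets were removed. Counts were summed per library and cluster and divided by total UMIs (CPM). Ratios carry exact Clopper-Pearson intervals at 95%, conditional on both counts, and levels exact Poisson intervals, covering counting error only. The summing and interval steps were tested on simulated data. Clusters used 2000 variable genes without members, cytosolic ribosomal protein, mitochondrial, sex-linked and phase genes, 30 components, 15 neighbours from each library and Leiden clustering at resolution 1 (scanpy 1.11.5, leidenalg 0.10.2). A cluster took a name when at least 3 markers stood among its 25 leading genes, at least 3 were detected in 10% of cells and its top 10 held no more markers of another list. Genes, lists and members were chosen with earlier results of these data known. Genes named were the 6 highest and 6 lowest members, the 2 highest and 2 lowest in each class and list, and members with set roles. Coordinates are of GENCODE M21 (GRCm38). Alternatives are given in the closing section.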

Additional observations from a re-analysis of the deposited data

Results flagged for a closer look

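In a pair of small clusters the summed members stood lower in the irradiated library, while the ratio was above 0 in the other clusters, with an interval that held 0 in B lineage-like cells (0.006, -0.04 to 0.05), and the difference between clusters was not tested. In the cluster led by H2-Eb1, Cd74 and H2-Aa, genes of antigen presentation, the sum was 5920 CPM (5674 to 6174) in 27 control cells and 4831 CPM (4717 to 4948) in 78 irradiated cells, a log2 ratio of -0.29. In T/NK lineage-like cells, led by Trbc1, Ccl5 and Gzma, it was 6765 CPM (6560 to 6975) in 39 control cells and 6103 CPM (5846 to 6368) in 27 irradiated cells, a log2 ratio of -0.15. Both clusters lay below the 100 cells per library asked for elsewhere.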

How the results depend on the processing

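No sum or count, and none of the 19 named members followed here, changed direction under any alternative that was run. Other members did. In cells of 20000 to 30000 UMIs, 7 of 73 members at the minimum lay below 0, against 1 of 74 over all cells. Among them Mrps17, at 0.21 over all cells, stood at -0.10 (-0.17 to -0.03). For all cells the log2 ratio of the summed members was 0.36 at a limit of 5% mitochondrial UMIs, 0.37 with each cell weighted equally, 0.37 with cells thinned to 5000 UMIs, 0.37 with the median ratio of all genes set to 1 and 0.33 with mitochondrially encoded and cytosolic ribosomal protein genes left out of the total. In cells of 20000 to 30000 UMIs, an alternative chosen after seeing the data, it was 0.15 and the count of members higher by 25% or more was 4, while the other 9 alternatives gave 45 to 55. The count lower by 20% or more was 0 in all 10. At a limit of 5% mitochondrial UMIs the log2 ratio of the sum was 0.061 in HSC-like, 0.17 in lymphoid-primed-like and 0.12 in megakaryocyte-primed-like cells. At resolution 0.5 it was 0.27 in HSC-like, 0.16 in lymphoid-primed-like and 0.15 in neutrophil-primed-like cells, and no cluster took the megakaryocyte-primed name. With 30 neighbours from all cells it was 0.13 in neutrophil-primed-like and 0.12 in megakaryocyte-primed-like cells. Without the 6% highest doublet scores it was 0.11 in lymphoid-primed-like and 0.13 in megakaryocyte-primed-like cells. With equal weights it was 0.16 in neutrophil-primed-like and 0.11 in megakaryocyte-primed-like cells, and with thinned cells 0.15 and 0.13. In G1 cells alone it was 0.046 and 0.0040. It was 0.12 in lymphoid-primed-like cells with all barcodes and 0.071 in HSC-like cells with the median ratio set to 1. At the control cluster mix it was 0.21 at resolution 0.5, 0.10 with 30 neighbours from all cells and 0.17 with marker genes left out. Of 152 values for 19 named members under 8 alternatives, 95 stayed inside the counting interval, 57 moved out of it and 0 changed sign. The cause of these shifts was not tested. No paired analysis was possible because each group had 1 library. The HSC-like set of the irradiated library had 1359054 UMIs, which limits single members there.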
